A study of Mus musculus with 3 samples.

Results

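The last coding segment of a gene is the stretch of coding sequence (CDS) that lies in the exon carrying the stop codon. Of 20823 mouse genes whose longest transcript had a CDS with untranslated regions (UTRs) on both sides, 9168 had a CDS of at least 1200 nucleotides (nt) in at least 3 segments, and in 3750 of these the last segment was 30 to 150 nt long. These 3750 last segments were compared with the coding segment just before them in the same transcript. They had a median length of 100 nt against 122 nt for the preceding segments, and their genes had a median of 15 coding segments. In a further 498 genes the last segment was shorter than 30 nt and in 4920 it was longer than 150 nt.

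The cells were primary cortical neurons grown from the embryonic cortex of CD-1 mice, and ribosome profiling was used, in which pieces of mRNA shielded by ribosomes from a nuclease are sequenced. The untreated neurons are called WT, those given cycloheximide for 2 min Chx, and those given harringtonine for 2 min with a following cycloheximide pulse Harr. Each library was made from 3 pooled dishes, and cycloheximide at 100 μg per ml was present in the buffers used to rinse and lyse the cells, WT included. There was 1 library per treatment, so no difference between treatments had a replicate check and every interval given here covers counting error only.

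A ribosome that has read the last sense codon waits with a stop codon in its A site until release factors free the finished protein and recycling factors split the subunits. Cycloheximide holds ribosomes by blocking the translocation step of elongation. Harringtonine stops ribosomes that have just started, while those farther along the CDS can go on towards the stop codon. Reads were counted at their 5′ ends, so a ribosome with a stop codon in its A site is counted upstream of the stop codon, inside the last segment or, where that segment is very short, in the one before it.

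The ends of the coding sequences that the values below turn on were read from the mm10 mouse genome with GENCODE M21 annotation. They are shown 5′ to 3′ as the final 30 nt of the CDS, with the stop codon in capitals. All belong to members that passed the naming rule given below, and the ranks hold among those members only. First come genes whose last segment was densest relative to the preceding one in WT, then genes where it was sparsest. Some of the genes named for a low or high change between libraries follow, and last a pair of paralogs and a ribosome recycling factor.
Smarca4: cgctcaggaagtggcagtgaggaagacTGA
Taf15: agaaatgatcagcgcaaccgaccatacTGA
Oxct1: ctcatgccaatgcagcagatttcaactTGA
Sec23a: aagaaacttgcagtgtcgagtgctgctTGA
Spock2: gaggcagatgatggaggctacatctggTAG
Ubxn4: tggaatggaaactccacgcagcagatgTAG
Sfpq: gaagggccaaataaaaaaccccgatttTAG
Sept7: aagaacaagaagaaaggcaagatctttTAA
Rasa1: cagtatacaaaaaccaatgacatcaggTAG
Txnrd1: gacatcctccagtctggctgctgaggtTAA
Dnajc7: ccagggaatttctactttcagtttggcTAA
Dpysl2: ggccgtgccaacatcaccagcctgggcTAA
Crmp1: ggccgctccaacatcaccagcctcggtTGA
Abce1: agtggaaactactttttcttggatgatTAG

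The libraries held 30219197 reads for WT, 35722483 for Chx and 9754412 for Harr, so that Harr was the shallowest. The 8 neuronal markers summed to between 3847 and 5363 reads per 1000000 in the 3 libraries. With 4 genes each, astrocyte markers summed to 78.8 to 213, oligodendrocyte markers to 2.15 to 6.52 and microglial markers to 1.43 to 2.80. In Harr most of the neuronal sum was Map2, at 2904 against 2231 in WT. The other neuronal markers were lower in Harr than in WT, such as Stmn2 at 133 against 1154. The last segments made up 3.80% of the CDS length of their genes. They held 5.16% of the CDS reads in WT, 3.56% in Chx and 8.47% in Harr. Of the 3750 members, 1754 had fewer than 20 reads in the last and preceding segments together in every library and entered no ratio. A ratio was computed for 1904 members in WT, 1897 in Chx and 1427 in Harr.

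In WT neurons the last segment was denser in reads than the segment before it. Over all members the last segments held 247665 reads and the preceding segments 255961, which gave 0.678 against 0.448 reads per nt and a ratio of 1.51 (95% counting interval 1.51 to 1.52). The median log2 ratio over the 1904 members was 0.86, and 1526 of them (80.1%) lay above 0. A member was called when its densities differed at least 2-fold and the 95% counting interval of the ratio excluded 1. In WT 814 members (42.8%) were called higher in the last segment and 83 (4.36%) lower. Among internal coding segments of 30 to 150 nt in the eligible genes, each against the one before it, 11% were called higher and 16.8% lower. Their median was -0.14, and 43.8% of them lay above 0.

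In Chx neurons the same segments were close to level with the ones before them. The last segments held 211964 reads and the preceding ones 325268, or 0.580 and 0.569 reads per nt, a ratio of 1.02 (1.01 to 1.03). The median log2 ratio over 1897 members was 0.14. Here 306 members (16.1%) were called higher and 203 (10.7%) lower, against 11.3% and 17.9% of internal segments, whose median was -0.17.

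In Harr neurons the last segment was again the denser one. There were 113387 reads in the last and 116545 in the preceding segments, which gave 0.311 and 0.204 reads per nt and a ratio of 1.52 (1.51 to 1.54). The median log2 ratio over 1427 members was 0.76. In this library 513 members (35.9%) were called higher and 59 (4.13%) lower, against 12.6% and 17.8% of internal segments, whose median was -0.08.

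**Figure D1:**
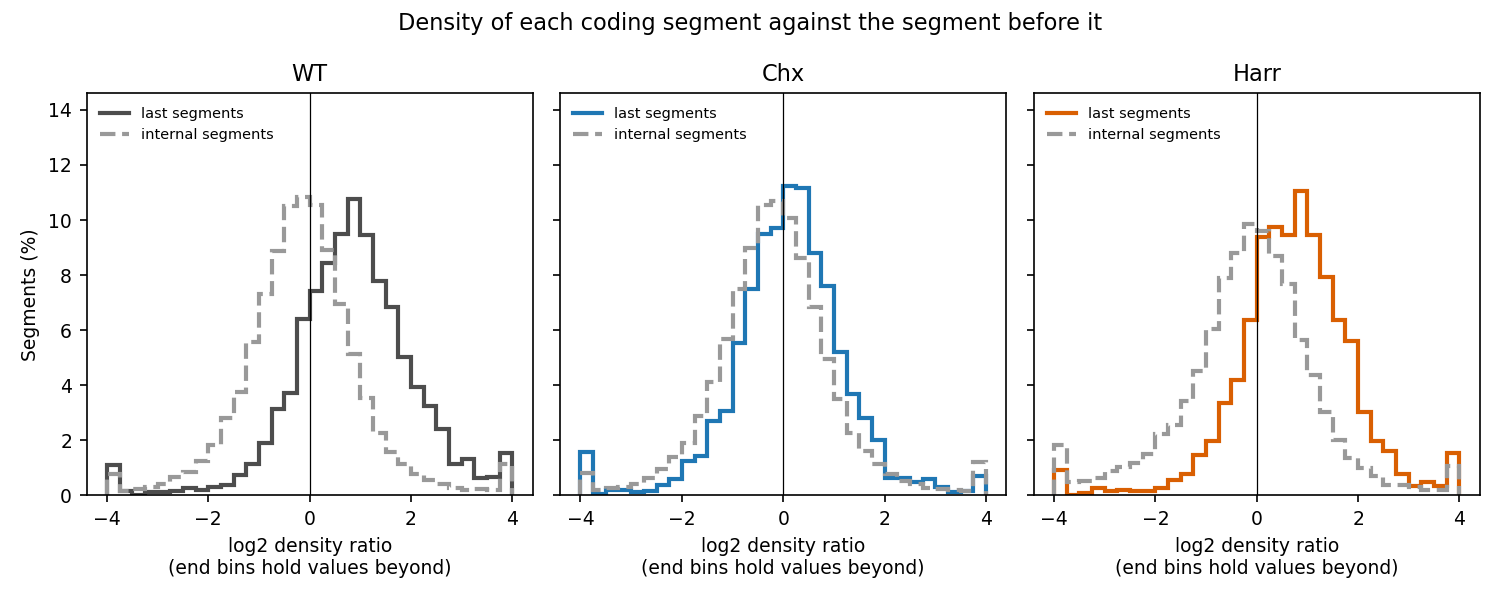
Percent of segments (y axis) in each bin of the log2 density ratio of a segment to the one before it (x axis), for WT, Chx and Harr. Solid lines are last segments and dashed lines internal segments of 30 to 150 nt; the last segments are shifted to the right of 0 in WT (median 0.86) and Harr (median 0.76) and lie near 0 in Chx (median 0.14).

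The size of these ratios depended on what the last segment was set against. When the whole CDS from its second segment to the preceding one served as the reference, the median log2 ratio was 0.23 in WT, -0.41 in Chx and 1.10 in Harr. The preceding segments themselves, set against the segment before them, had medians of 0.00 in WT, -0.05 in Chx and 0.21 in Harr. The order in which Chx was lowest was found with both references, while the place of Harr relative to WT was not.

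When the same pair of segments is compared between libraries, their lengths cancel out of the change of the ratio. From WT to Chx the log2 ratio was lower by a median of 0.66 over 1806 members (median change -0.66, interval over segments -0.70 to -0.62). A change was called when it was at least 2-fold with a 95% counting interval that excluded 0, and 501 members (27.7%) were called lower in Chx and 24 (1.33%) higher. Of internal segments 4.96% were called lower and 4.22% higher, and their median change was -0.02. From Chx to Harr the median change was 0.63 over 1420 members, with 322 members (22.7%) called higher and 14 (0.986%) lower, against 7.96% and 8.4% of internal segments and a median of 0.08. Between WT and Harr the median change was -0.03 over 1422 members, with 54 (3.80%) called higher in Harr and 76 (5.34%) lower. Both shares were below the 7.18% and 8.92% of internal segments.

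**Figure D2:**
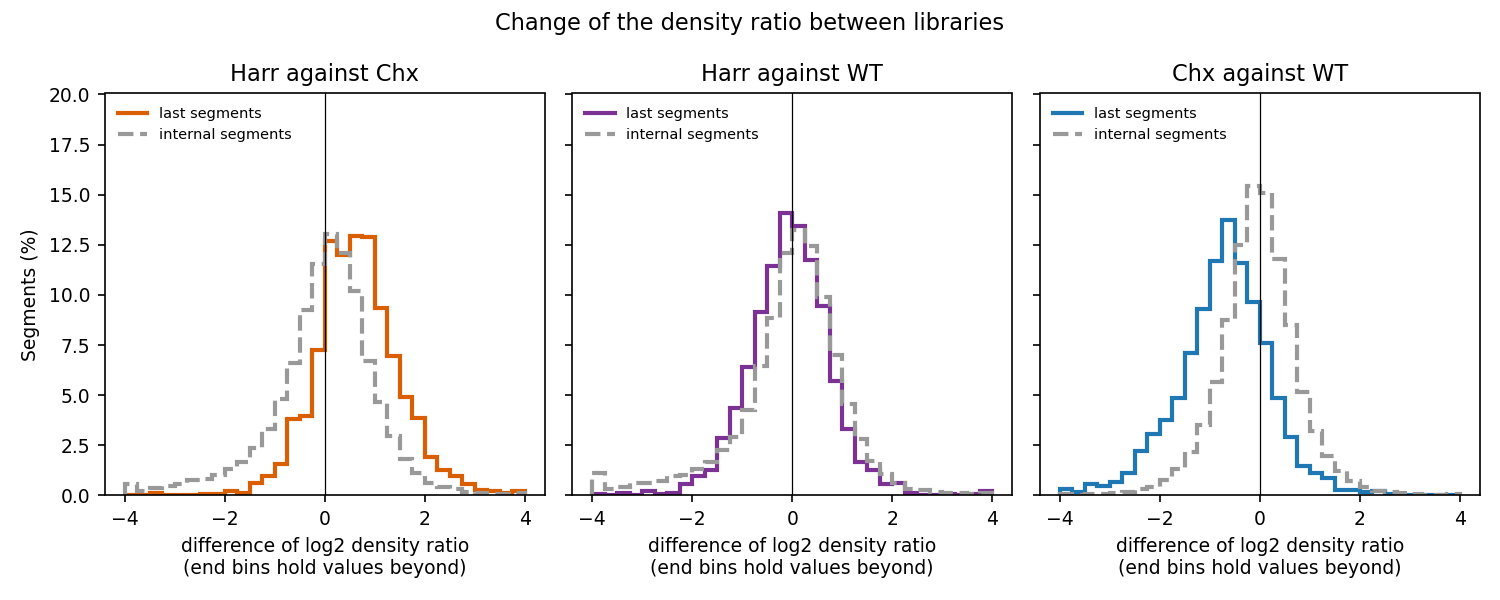
Percent of segments (y axis) in each bin of the difference of the log2 density ratio between 2 libraries (x axis). The last segments (solid) lie to the right of the internal segments (dashed) for Harr against Chx (medians 0.63 and 0.08). They are centred near the internal segments for Harr against WT (-0.03 and 0.08) and lie to their left for Chx against WT (-0.66 and -0.02).

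The 3 comparisons share libraries and are not independent of each other. Of the 1416 members with a ratio in every library, Chx had the lowest of the 3 ratios in 1013 (71.5%), compared with 33.5% of the internal segments treated in the same way. The log2 ratio was above 0 in all 3 libraries in 707 of these members (49.9%, against 26.1% of internal segments), and above 0 in WT and Harr but not in Chx in 295 (20.8%, against 5.52%). In 162 members (11.4%, against 4.80%) the last segment was called higher in every library, and in 33 (2.33%, against 6.51%) it was called lower in every library. Among those 33, 14 belonged to genes with a single annotated stop codon position. In the segment that precedes the last one, the change from WT to Chx had a median of -0.04, while the change from Chx to Harr had a median of 0.24.

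The shorter the last segment, the higher its density in WT relative to the preceding segment. The members were put into 5 classes of length, with upper limits at 50, 75 and 100 nt for the first 3. Median lengths were 40, 64, 89, 112.5 and 138 nt in members with at least 10 reads in the preceding segment in WT and Chx. From the shortest to the longest class the median log2 ratio in WT was 1.17, 1.03, 0.84, 0.78 and 0.74. In Chx the shortest class was instead the lowest, at -0.19, and the longest was at 0.22, and in Harr the medians went from 0.91 to 0.66. Internal segments showed a different dependence, since at 30 to 50 nt their medians were -0.95 in WT, -1.08 in Chx and -1.19 in Harr, and in the longest class they lay between -0.03 and 0.06 in every library. Short internal segments are bounded by a splice junction on both sides, whereas in 3739 of the 3750 members the exon continued past the stop codon into the 3′ UTR. In the 11 members whose 3′ UTR began in the next exon, 6 had enough reads, and their median log2 ratios were -0.54 in WT, -0.63 in Chx and -0.50 in Harr. The part that the alignment of reads across junctions had in these values was not tested.

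The change from WT to Chx also narrowed with length. Its median was -1.18 in the shortest class, then -0.84, -0.72 and -0.60, and -0.48 in the longest. The change from Chx to Harr went from 0.84 to 0.46 over the same classes. Internal segments of these lengths had median changes between -0.13 and -0.01 from WT to Chx, and between 0.03 and 0.11 from Chx to Harr.

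Expressed as a load of reads, however, the difference between WT and Chx hardly moved with length. The reads in each last segment were divided by the density of the preceding segment, which gives the number of nt of that density that would hold as many reads. At 30 to 50 nt this load had a median of 78.9 nt in WT and 33.5 nt in Chx (150 members with at least 10 reads in the preceding segment in both libraries). In the longest class it was 212 nt in WT and 150 nt in Chx (449 members). The median difference between WT and Chx was 44.3 nt in the shortest class, then 50.2, 49.2 and 48.7 nt, and 47.7 nt in the longest. In these members the last segments had a median length of 40 nt in the shortest class and 138 nt in the longest. They thus differed between WT and Chx by a similar load. The spread over genes was wide, with quartiles of 14.5 and 98.3 nt in the shortest class and 3.07 and 118 nt in the longest. The median difference between Harr and Chx rose from 25.1 nt in the shortest class to 36.8, 42.0 and 44.5 nt, and was 40.9 nt in the longest.

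Last segments outside the length limits were set beside these as a description. Of 498 segments under 30 nt, those of 16 to 29 nt had median log2 ratios of 1.39 in WT and -0.43 in Chx and a load difference of 33.6 nt. Those of 1 to 15 nt had -0.80 in WT and -2.27 in Chx and a load difference of 0.0786 nt. Above 150 and up to 200 nt the load difference between WT and Chx was 57.1 nt, and over 200 nt it was 22.1 nt with quartiles of -64.9 and 130 nt. The load difference between Harr and Chx was larger there than within the limits, at 55.8 and 79.4 nt. Just inside the lower limit, at 30 and 31 nt, the WT medians were 1.06 and 1.09, and just outside it, at 28 and 29 nt, they were 1.15 and 0.44. At the upper limit of 150 nt the WT median was 0.76, and at the first 2 lengths above it 0.06 and 0.78. These rest on 5 to 22 segments each.

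**Figure D3:**
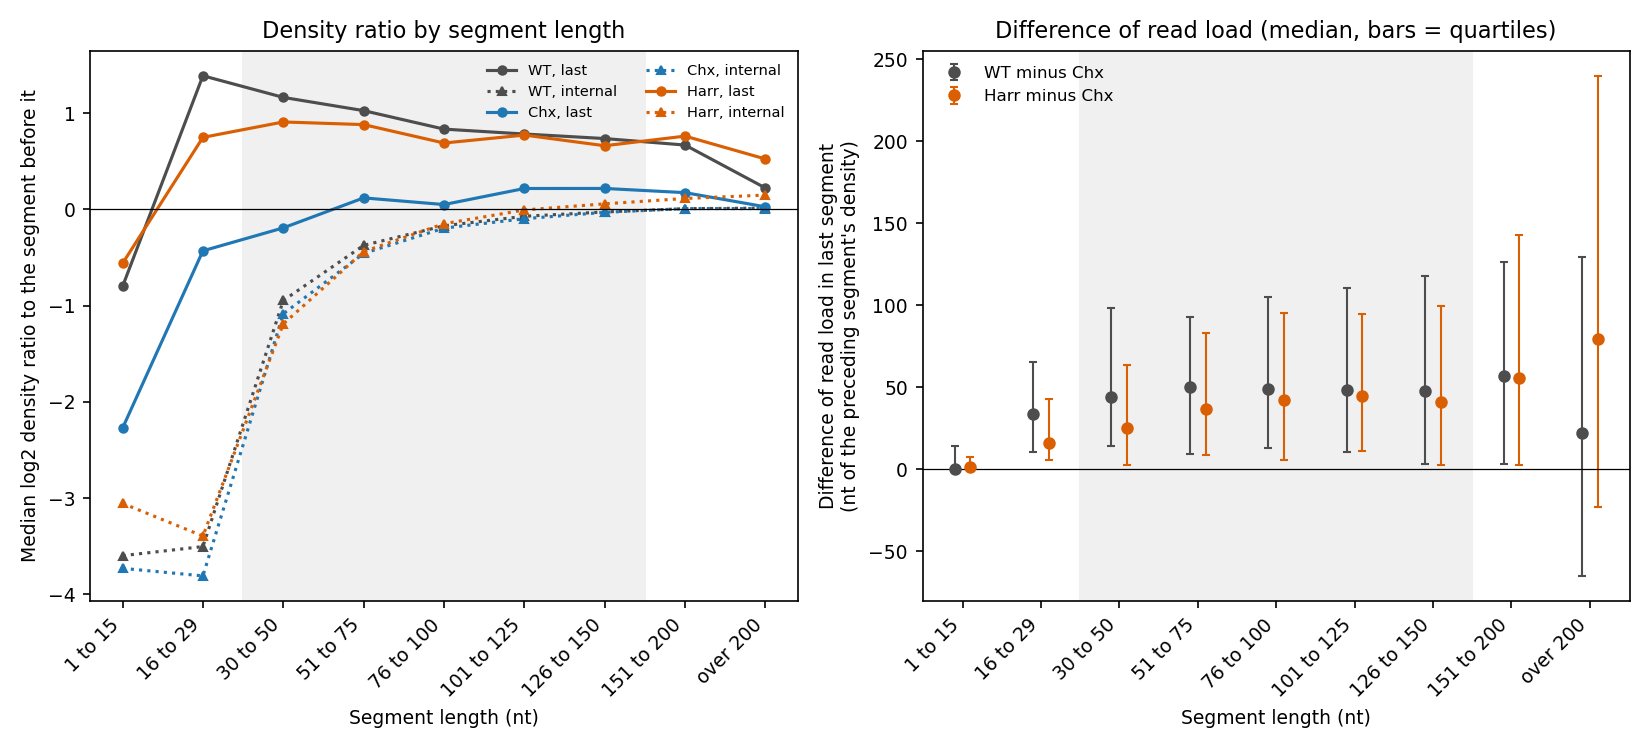
Left, median log2 density ratio of a segment to the one before it (y axis) by segment length (x axis) for last segments (circles, solid) and internal segments (triangles, dotted) in WT, Chx and Harr. Right, median difference between libraries of the read load in the last segment, in nt of the preceding segment's density, with quartiles as bars; in the shaded classes of 30 to 150 nt the WT minus Chx medians stay between 44.3 and 50.2 nt.

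The 3 stop codons were used by these members in about the shares of all eligible genes. TGA closed 51.8% of the 3731 members with sequence, TAA 25.5% and TAG 22.7%, against 49.9%, 26.4% and 23.7% of 9108 eligible genes. In WT the median log2 ratio was 0.91 for TGA (982 members), 0.91 for TAG (449) and 0.66 for TAA (466). In Chx the medians were 0.21, 0.12 and -0.02 in the same order, and in Harr 0.90, 0.64 and 0.56. TAA members had the lowest median in each library, but the ratio of pooled reads in WT was lowest for TGA, at 1.38 against 1.58 for TAA and 1.71 for TAG. The change from WT to Chx was nearly the same for the 3 codons, at -0.68 for TGA, -0.68 for TAG and -0.63 for TAA.

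The base after the stop codon, which takes part in recognition by the release factor, went with a small difference of the WT medians that the pooled reads did not show. Members with C at that place had a median of 1.01 in WT (479 members), and those with A, G or T had 0.78, 0.83 and 0.78. The ratio of pooled reads in WT was 1.42 with C, between 1.34 with A and 1.67 with G and 1.69 with T. The Chx medians lay between 0.08 and 0.20 for the 4 bases. The change from WT to Chx was -0.80 with C, -0.67 with T, -0.60 with G and -0.58 with A.

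Grouped by the last sense codon, the WT medians were lowest where it encoded phenylalanine (0.48, 105 members), isoleucine (0.49, 73), lysine (0.53) and glutamine (0.56, 76). They were highest where it encoded arginine (1.12, 116), threonine (1.11, 105), histidine (1.05, 69) and glutamate (1.04, 111). This order held for the medians only. The ratio of pooled reads in WT was 1.88 for isoleucine, above the 1.62 for threonine and 1.60 for glutamate, and it was highest for serine (2.34) and lowest for lysine (0.576). In all 20 groups the median change from WT to Chx was negative, from -0.30 for methionine to -0.91 for glycine. One class of the proteins that dock on PDZ domains, to which several synaptic receptors belong, ends in a serine or threonine followed by any residue and a hydrophobic one, and other classes were not searched for. Such endings were encoded by 216 members (5.79%) against 7.42% of eligible genes. Their medians were 0.77 in WT, 0.01 in Chx and 0.71 in Harr, slightly below 0.86, 0.15 and 0.76 in the other members. The ratios of pooled reads went the other way, at 2.36 in WT, 1.43 in Chx and 2.33 in Harr with these endings against 1.48, 0.999 and 1.48 without.

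Beyond the stop codon the read density dropped sharply in every library. Over 3413 members whose 3′ UTR overlapped no annotated CDS, the UTR density was 0.544% of that in the last segment in WT (interval 0.536 to 0.552), 0.247% in Chx (0.241 to 0.252) and 2.23% in Harr (2.20 to 2.26). The UTRs held 20147 reads in WT, 7779 in Chx and 37558 in Harr over the same 5318333 nt, so the shallowest library had the most reads there. By stop codon, the UTR density in WT was 0.598% of that in the last segment for TGA, 0.509% for TAG and 0.490% for TAA. Relative to the preceding segment it was 0.829%, 0.853% and 0.745%, so that TGA was not the highest there. Relative to the last segment, TAA was also lowest in Chx, at 0.206% against 0.259% for TAG and 0.268% for TGA, but in Harr TAG was lowest, at 1.93% (1.88 to 1.99) against 2.26% for TAA (2.21 to 2.31) and 2.31% for TGA (2.28 to 2.35).

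No single gene held more than a few percent of the reads in the last segments. The most read over the 3 libraries was Dpysl3, a collapsin response mediator of the axonal cytoskeleton, with 5692 reads in WT, 4504 in Chx and 2790 in Harr, or 2.30%, 2.12% and 2.46% of all reads in members' last segments. Its last segment of 89 nt was 4.37-fold denser than the preceding one in WT, 1.89-fold in Chx and 3.32-fold in Harr, although the gene has 2 annotated stop positions. Psap, which encodes the precursor of the lysosomal saposins, had 6223, 3474 and 2961 reads in a last segment of only 36 nt, and folds of 6.55, 3.32 and 5.36. In Hmgcs1, an enzyme of cholesterol synthesis, Harr was highest, with folds of 1.93 in WT, 1.74 in Chx and 3.29 in Harr.

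Single genes were named by rule among the 212 members with at least 100 reads in both segments together in every library, 1 annotated stop position and no 25-nt word shared with transcripts of other genes. Reln, the gene of the extracellular guidance protein reelin, at chr5:21885473-21885569, was named for its WT ratio and for its change from Chx to Harr, both of which rest on the pseudocount. Its last segment held 652 reads in WT, 455 in Chx and 284 in Harr, but the preceding segment is only 6 nt long and held 0 reads in every library. With 3 counts per library taken as the limit, the last segment was at least 13.4-fold denser in WT, at least 9.38-fold in Chx and at least 5.86-fold in Harr, and the exact 95% intervals began at 10.9, 7.60 and 4.73. These bounds lie below the folds of Smarca4 and Taf15 in WT, so that the rank of Reln is not known, and the order of the libraries cannot be read from them. Internal segments of 1 to 15 nt were nearly empty in every library. Their ratios of pooled reads to the segment before them were 0.00148 in WT, 0.000626 in Chx and 0 in Harr. An empty segment of 6 nt is thus not particular to Reln, and the bounds do not by themselves show a dense last segment.

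Smarca4, the ATPase of a chromatin remodelling complex, has a last segment of 33 nt at chr9:21702936-21702968. It held 154 reads in WT, 36 in Chx and 60 in Harr, while the preceding segment of 143 nt held 33, 70 and 40. The last segment was 20.0-fold denser than the preceding one in WT (13.8 to 30.4), 2.24-fold in Chx (1.45 to 3.38) and 6.47-fold in Harr (4.29 to 9.95). The 3 intervals did not overlap, but they take no account of the choice of this gene for its WT ratio and its change. The whole CDS of 4854 nt held 8381 reads in WT, 10242 in Chx and 3274 in Harr. The preceding segment was thus sparse for this gene in each library, and in Chx so was the last one. The change from WT to Chx, -3.16 on the log2 scale (SE 0.40 from counting), was the lowest among the 212 members.

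Taf15, a nuclear RNA-binding protein, differed from Smarca4 in that its ratio was high in every library. Its last segment of 40 nt at chr11:83506418-83506457 held 166, 80 and 117 reads in WT, Chx and Harr against 106, 58 and 64 in a preceding segment of 463 nt. The folds were 18.1 (14.1 to 23.4), 15.9 (11.2 to 22.8) and 21.1 (15.5 to 29.2), with intervals that overlapped throughout. Here too the preceding segment was sparse, since the whole CDS of 1674 nt held 2159 reads in WT, 2120 in Chx and 587 in Harr.

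Oxct1, the mitochondrial enzyme that lets neurons use ketone bodies, had 1083 reads in WT, 562 in Chx and 543 in Harr in a last segment of 42 nt at chr15:4153728-4153769. Against 282, 358 and 121 reads in 102 nt before it, the folds were 9.31 in WT, 3.81 in Chx and 10.9 in Harr. WT and Harr overlapped and Chx lay below both. Sec23a, a subunit of the vesicle coat that leaves the endoplasmic reticulum, showed folds of 9.31 in WT, 2.83 in Chx and 4.76 in Harr at chr12:58959997-58960086. Its preceding segment of 66 nt held only 26 reads in WT, against 3309 in the whole CDS of 2298 nt.

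At the other end of the range, Spock2, a proteoglycan of the brain extracellular matrix, had few reads in its last segment in every library. The segment of 146 nt at chr10:60131336-60131481 held 115 reads in WT, 116 in Chx and 81 in Harr, against 713, 1029 and 335 in the 138 nt before it. The folds were 0.153 (0.124 to 0.186), 0.107 (0.0872 to 0.129) and 0.230 (0.177 to 0.292). Ubxn4, a membrane protein of the endoplasmic reticulum that takes part in protein degradation, had 70, 76 and 47 reads in its last segment at chr1:128276957-128277095 and 576, 589 and 275 before it. Its folds of 0.179, 0.190 and 0.252 had overlapping intervals. Sfpq, a splicing factor that also accompanies axonal mRNAs, was the most even, with folds of 0.365 in WT, 0.329 in Chx and 0.344 in Harr at chr4:127029827-127029964.

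Aplp1 and Cat completed the 5 lowest genes in WT among the members that passed the naming rule. The first encodes a relative of the amyloid precursor protein, and the second encodes catalase. Aplp1 had 330, 489 and 242 reads in its last segment and folds of 0.427 in WT, 0.506 in Chx and 0.551 in Harr. Cat had 32, 36 and 37 reads and folds of 0.447, 0.367 and 0.658, with overlapping intervals. In these 5 genes the intervals of Chx and WT overlapped. In Spock2 they did so only between 0.124 and 0.129, and the change from WT to Chx was -0.52 (SE 0.20).

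Among the members that passed the naming rule, the last segment lost most in Chx relative to WT in Smarca4, followed by Rasa1 and Sept7. The protein of Rasa1 switches off Ras, and that of Sept7 is a septin that forms filaments at the base of dendritic spines. Rasa1 had 166 reads in WT, 49 in Chx and 61 in Harr in its last segment at chr13:85216104-85216187, against 70, 114 and 54 before it. Its folds were 3.80, 0.695 and 1.81, so that the last segment was the denser one in WT and Harr and the sparser one in Chx. Sept7 held 338, 111 and 105 reads in 40 nt at chr9:25307513-25307552 against 198, 330 and 102 before it. The folds of 5.97 in WT, 1.18 in Chx and 3.60 in Harr had intervals that did not overlap, but these take no account of the choice of Sept7 for its change.

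A ratio higher in Chx than in WT was found in 355 of the 1806 members tested (19.7%), against 48.5% of internal segments. Only the 24 members given above were called higher. None of the 3 members named for the highest change was called. Txnrd1, a selenoprotein that reduces thioredoxin, had the highest change from WT to Chx among the 212 members, 0.72 (SE 0.21). Its last segment at chr10:82895977-82896045 held 112 reads in WT, 230 in Chx and 89 in Harr, against 235, 293 and 114 before it. The folds were 0.935 (0.738 to 1.17), 1.54 (1.29 to 1.83) and 1.53 (1.14 to 2.03). In its printed end, an in-frame TGA codon, read as selenocysteine, lies just before the last sense codon and the TAA stop codon. Sf3b2, a subunit of the splicing factor SF3b, followed with folds of 1.18, 1.80 and 1.19, and Aco1, the cytosolic aconitase that also binds iron-responsive mRNAs, with 0.590, 0.825 and 1.21. The WT and Chx intervals of Sf3b2 and of Aco1 overlapped.

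Harr stood farthest above Chx, among the members that passed the naming rule, in Nell1, Mapk8ip3 and Nelfb. Nell1 is a secreted protein with EGF-like repeats, and Mapk8ip3 is an adaptor between cargo and axonal motors. Nelfb is a subunit of a complex that pauses RNA polymerase. Nell1 had folds of 1.81 in WT, 0.609 in Chx and 2.44 in Harr, Mapk8ip3 3.86, 0.906 and 3.41, and Nelfb 1.67, 0.996 and 3.75. Their changes from Chx to Harr were 2.00 (SE 0.39), 1.91 (SE 0.33) and 1.91 (SE 0.46). In Nell1 and Mapk8ip3 the intervals of Harr and WT overlapped widely, and in Nelfb the interval of Harr (2.27 to 6.88) overlapped only the upper end of that of WT (1.19 to 2.42).

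Besides Reln, whose change cannot be read, the rule for a low change from Chx to Harr named Dnajc7, a co-chaperone, and Kif3b, a kinesin motor subunit. Dnajc7 held 439 reads in WT, 143 in Chx and 77 in Harr in a last segment of 38 nt at chr11:100583099-100583136, against 213, 168 and 147 before it. The folds fell in the order 3.41 in WT, 1.41 in Chx and 0.871 in Harr, and the Chx and Harr intervals touched. Kif3b had folds of 1.06, 0.953 and 0.608, with overlapping intervals for Chx and Harr.

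**Figure D4:**
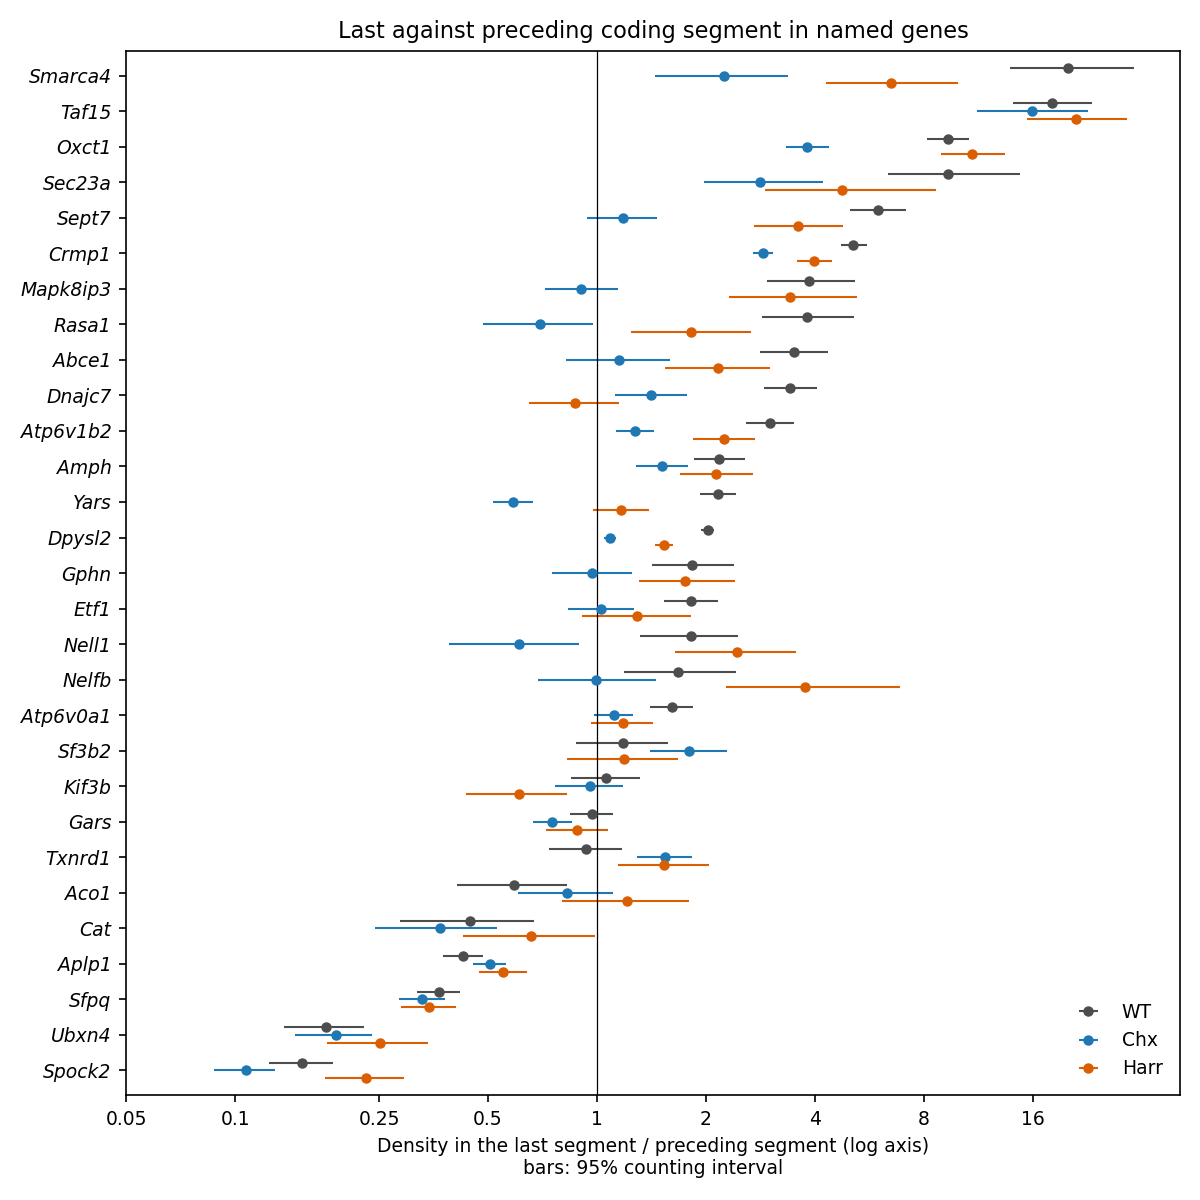
Density of the last segment divided by that of the preceding one (x axis, log scale) in 29 named genes (y axis), for WT, Chx and Harr, with 95% counting intervals as bars. Reln is left out because its preceding segment had 0 reads. Smarca4 ranges from 2.24 in Chx to 20.0 in WT, while Taf15, Sfpq and Ubxn4 keep overlapping intervals in the 3 libraries.

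Functional groups were followed through lists of genes relevant to neurons and to translation, and they are described by counts and medians. Over all members the medians were 0.86 in WT, 0.14 in Chx and 0.76 in Harr. The shares called were 42.8% higher and 4.36% lower in WT, 16.1% and 10.7% in Chx, and 35.9% and 4.13% in Harr. The postsynaptic list of receptors and scaffolds had 7 of its 41 genes among the members. Of 6 tested in WT, 2 were called higher (Dlg1 and Dlg2) and 1 lower, against 42.8% and 4.36% of all members, with a median of 0.89 in WT, 0.07 in Chx and 0.81 in Harr. Dlg2, a scaffold of the postsynaptic density, had log2 ratios of 1.95, 1.03 and 1.91 in WT, Chx and Harr. Gphn, the scaffold gephyrin of inhibitory synapses, had folds of 1.83 in WT, 0.966 in Chx and 1.75 in Harr.

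Of 10 members in the synaptic vesicle and active zone list, 9 were tested in WT, with 5 called higher (Amph, Bsn, Pclo, Ppfia2 and Stxbp5) and 1 lower (Bin1), against 42.8% and 4.36% of all members. The list medians were 1.12 in WT, 0.06 in Chx and 1.13 in Harr. Stxbp5, which binds syntaxin, had a log2 ratio of 2.43 in WT, -0.35 in Chx and 2.21 in Harr. Pclo, a giant scaffold of the active zone, had 2.20, 0.86 and 0.93. Amph, the endocytic protein amphiphysin, had folds of 2.17, 1.51 and 2.13, whereas its relative Bin1 had log2 ratios of -1.16, -1.14 and -0.72. The change from WT to Chx was called lower in 4 of the 9 and higher in 0, against 27.7% and 1.33% of all members.

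Among ion channels and pumps, 7 genes were members and 6 were tested in WT, with 3 called higher and 0 lower (all members 42.8% and 4.36%) and medians of 0.98 in WT, 0.28 in Chx and 1.05 in Harr. The higher ones were Atp6v1a, Atp6v1b2 and Cacna2d3. Atp6v1b2, a subunit of the proton pump that acidifies synaptic vesicles, had 731, 618 and 350 reads in its last segment and log2 ratios of 1.58, 0.35 and 1.16. Atp6v0a1, a membrane subunit of the same pump, had folds of 1.61, 1.11 and 1.18.

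The list of motors and cytoskeleton had the most members, 24, all with a ratio in every library. In WT 10 were called higher and 0 lower, in Chx 4 and 1, and in Harr 7 and 0, with medians of 0.91, 0.01 and 0.50. Among all members 42.8%, 16.1% and 35.9% were called higher and 4.36%, 10.7% and 4.13% lower. The highest was Kif5a, the neuronal kinesin heavy chain, with log2 ratios of 4.96, 3.69 and 4.82, while its relatives Kif5b and Kif5c lay between -0.16 and 0.48 in all libraries. Kif5a has 2 annotated stop positions. Kif21a, a kinesin that carries axonal cargo, was called higher in WT (1.84), lower in Chx (-1.62) and neither in Harr (0.57). Dync1h1, the heavy chain of dynein, and Sptan1, the spectrin of the axonal membrane skeleton, were called higher in every library, at 2.11, 1.49 and 1.93 for Dync1h1 and 1.46, 1.14 and 1.78 for Sptan1.

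The paralogs Dpysl2 and Crmp1, which guide axon growth by way of microtubules, have last segments of 92 nt and preceding segments of 166 nt each, and their printed ends are alike. Dpysl2 held 4711 reads in WT, 4684 in Chx and 2104 in Harr in its last segment, against 4199, 7773 and 2483 before it. Its folds were 2.02 (1.94 to 2.11), 1.09 (1.05 to 1.13) and 1.53 (1.44 to 1.62). Crmp1 held 2203, 2527 and 982 reads against 777, 1590 and 444. Its folds were 5.11 (4.71 to 5.56), 2.87 (2.69 to 3.06) and 3.99 (3.56 to 4.47). The 2 genes differed in level in every library, but the change from WT to Chx was -0.90 (SE 0.04) in Dpysl2 and -0.83 (SE 0.08) in Crmp1.

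Translation termination, recycling and mRNA surveillance factors contributed 17 members. Of 14 tested in WT, 7 were called higher and 1 lower, of 15 in Chx 0 and 1, and of 11 in Harr 5 and 3, with medians of 0.99, 0.20 and 0.44. Among all members 42.8%, 16.1% and 35.9% were called higher and 4.36%, 10.7% and 4.13% lower. The lower ones in Harr were Eif2d, Pabpc1 and Upf1. Pabpc1, the poly(A)-binding protein, had log2 ratios of -0.49, 0.04 and -1.16, and its segments share most of their sequence with other transcripts. The one called lower in every library was Eif2d, a recycling factor with 5 annotated stop positions, at -3.64, -6.43 and -4.87. Etf1, the release factor that reads the 3 stop codons, had folds of 1.82, 1.03 and 1.29. Its partner GTPase Gspt1, whose segments share sequence with other transcripts, had log2 ratios of 2.15, 0.39 and 1.80. Abce1, which splits the ribosome after termination, had 219, 57 and 72 reads in a last segment of 48 nt at chr8:79685230-79685277, and folds of 3.50, 1.15 and 2.15. Upf3b, a surveillance factor, had log2 ratios of 2.33, 0.12 and 1.57, while Upf1, the helicase of the same pathway, had -0.53, -0.83 and -1.07.

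Aminoacyl-tRNA synthetases and elongation factors, with 15 members, had the lowest medians of the 6 lists, at 0.51 in WT, -0.46 in Chx and 0.12 in Harr. Of 14 tested in each library, 4 were called higher and 2 lower in WT, 0 and 3 in Chx, and 1 and 2 in Harr, against 42.8% and 4.36%, 16.1% and 10.7%, and 35.9% and 4.13% of all members. Yars, the tyrosyl-tRNA synthetase, had 790, 362 and 241 reads in its last segment and folds of 2.15, 0.586 and 1.16. Gars, the glycyl-tRNA synthetase, had folds of 0.966, 0.753 and 0.883. Eef1a1, the main elongation factor that brings aminoacyl-tRNA, had log2 ratios of -2.73, -1.52 and -1.19, and 82.4% of the 25-nt words in its segments occurred in transcripts of other genes. Its change from WT to Chx, 1.21, was the only one called higher in any of the 6 lists. In each list the median change from WT to Chx was negative, between -0.85 for motors and cytoskeleton and -0.49 for ion channels and pumps, near the -0.66 of all members.

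**Figure D5:**
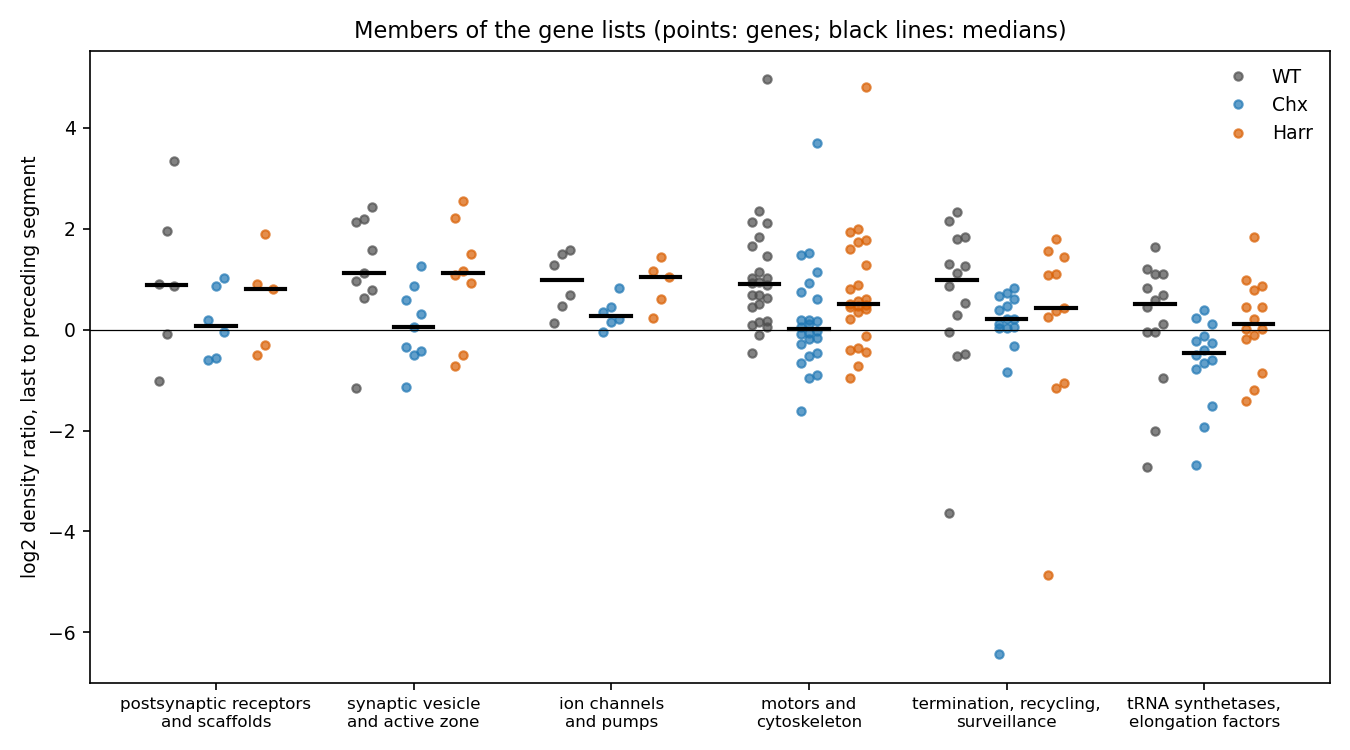
log2 density ratio of the last to the preceding segment (y axis) for members of 6 gene lists (x axis) with at least 20 reads, in WT, Chx and Harr; points are genes and black lines medians. In each list the Chx median is the lowest, from 0.28 for ion channels and pumps down to -0.46 for aminoacyl-tRNA synthetases and elongation factors.

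Longer coding sequences showed the same order of libraries. Members with a CDS of 1200 to 2000 nt had medians of 0.81 in WT, 0.14 in Chx and 0.80 in Harr, those over 2000 and up to 4000 nt 0.86, 0.13 and 0.69, and those over 4000 nt 1.12, 0.25 and 0.90. The change from WT to Chx was -0.60, -0.72 and -0.72 in the 3 classes. Members with a single annotated stop position (2368) and with several (1382) had WT medians of 0.87 and 0.85. The share called lower in WT was 3.14% in the first and 6.20% in the second.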

How the data were processed

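The authors deposited 9 tables of counts in exon segments (5′ UTR, CDS and 3′ UTR for each library) in the format of Plastid. Counts are whole and unnormalized. The deposited coverage signal (count per nt) and RPKM were not used. Per the file headers, reads of 25 to 100 nt were counted at their 5′ end with an offset of 0, after alignment to mm10 and removal of ribosomal reads and duplicates, so positions lie upstream of the ribosomal A site. The study's methods name Rsubread for its Plastid counts, and TopHat, limited to annotated junctions, for its ORF search on these libraries. Which of them made these tables is not stated. Groups come from the treatment recorded per the labels. The free-text descriptions name fractions of another experiment and were not used.

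Identifiers were joined to GENCODE M21 (99.1% matched with their version). The last CDS segment, stop codon included, was compared with the preceding one. A pseudocount of 0.5 was added to counts for log2 ratios, and at least 20 reads in both segments together were required. Fold intervals are exact Clopper-Pearson 95% intervals, and changes between libraries used 1.96 SE of the log2 odds ratio. The interval of a median describes segments, not replicates. Read loads required at least 10 reads in the preceding segment. With 1 library per treatment, no test across treatments was made. Amplified reads need not be independent molecules.

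Genes named by rule were those with the 5 highest and 5 lowest WT ratios, the 3 highest and 3 lowest changes for Harr against Chx and Chx against WT, and the 2 list members with the most reads in the last segment, among the 212 members described above. Only 1 member passed in the postsynaptic and in the synaptic vesicle list. One list member outside this rule is not reported here. Dpysl3, Psap, Hmgcs1 and other list members were chosen after their values were seen. The members and lists were chosen with earlier results of these data known. Computations used Python 3.11.15, pandas 2.3.3, numpy 2.4.6 and scipy 1.17.1, and were tested on simulated data.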

Additional observations from a re-analysis of the deposited data

How the results depend on the processing

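No paired analysis was possible because there is 1 library per treatment. Of 120 values recomputed for 12 results under 10 alternatives, 83 stayed within the interval of the median or within 1.5 times the count. Of the others, 35 moved further and 2 changed sign. Counts were compared without regard to the number of members tested, so a count can move while its share does not. In all 10 alternatives the Chx median was the lowest of the 3. Both changes of sign came with the CDS from the second segment to the preceding one as reference: the Chx median was then -0.41 and the change from WT to Harr 0.90. With that reference the medians were also 0.23 in WT and 1.10 in Harr. The changes were -0.60 for Chx against WT and 1.54 for Harr against Chx. This reference also raised the members tested to 2769 in WT, 2803 in Chx and 2370 in Harr. Of these, 271 (9.79%) in WT and 579 (20.7%) in Chx were called lower. Called higher were 477 (17.2%) in WT, 78 (2.78%) in Chx and 1076 (45.4%) in Harr. With a pseudocount of 5, the WT median was 0.80 and the changes -0.59 for Chx against WT and 0.54 for Harr against Chx. In Harr 38 of 1427 members (2.66%) were then called lower. With at least 100 reads, which leaves 836 members in WT, 870 in Chx and 423 in Harr, the medians were 0.76, 0.074 and 0.66. The change from WT to Chx was -0.59. In WT, Chx and Harr, 329 (39.4%), 118 (13.6%) and 140 (33.1%) members were called higher. Called lower were 34 (4.07%), 94 (10.8%) and 18 (4.26%). Restricting the members to genes with 1 stop position left 492 of 1146 (42.9%), 186 of 1143 (16.3%) and 305 of 870 (35.1%) called higher in WT, Chx and Harr. Called lower were 36 (3.14%), 105 (9.19%) and 32 (3.68%). Leaving out shared words left 36 of 1180 (3.05%) called lower in Harr. With members of 60 to 150 nt only, the change from WT to Chx was -0.61. With the last segment taken as 15 nt shorter, the medians were 1.13 in WT, 0.41 in Chx and 1.02 in Harr. In Harr 36 of 1427 members (2.52%) were then called lower. Leaving out 19 members with a preceding segment under 30 nt, and counts of members called higher, were added after seeing the data. Apart from the construction of each alternative, the cause of these shifts was not tested. The shallow Harr library and the 1754 members with few reads limit what can be seen in single genes.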
